A study of Homo sapiens with 41 samples.

Results

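The clustered protocadherins are 53 protein-coding genes on chromosome 5 whose symbols begin with PCDHA, PCDHB or PCDHG, taken from a RefSeq table of GRCh38.p14 that lists 19970 protein-coding genes. They fall into 3 clusters in a row. The alpha cluster holds 15 genes at chr5:140786140-141012347, the beta cluster 16 genes at chr5:141051374-141249365 and the gamma cluster 22 genes at chr5:141330514-141512975. Peaks were read at each gene start and over the clusters plus 50 kb on both sides, chr5:140736140-141562975, a window of 827 kb that also holds SLC25A2, TAF7 and part of DIAPH1.

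The study exposed T47D cells, a human luminal breast carcinoma line kept without steroids and serum, to osmotic stress and mapped chromatin proteins by chromatin immunoprecipitation sequencing (ChIP-seq). Stressed cells received 110 mM NaCl, according to the sample titles, for 7.5, 30 or 60 min. Recovered cells had 60 min of NaCl and then 60 min of isotonic medium. Triptolide, an inhibitor of transcription initiation, was given at 500 nM for 2 h before the unstressed, 1 h or recovery condition, and no triptolide group has more than 1 library for each antibody. CTCF has 13 peak lists (1 h, recovery and triptolide included), RAD21, a subunit of the cohesin ring, has 12, and RNA polymerase II (Pol II) has 4. All groups share the cell line, the steroid-free medium and the overnight serum withdrawal, and every list comes from a single library.

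Each clustered protocadherin is a cell surface adhesion protein. In the alpha and gamma clusters every variable exon has its own promoter and is spliced to constant exons shared by the whole cluster, so the gene spans overlap, while beta genes are single-exon genes. In neurons, each cell is known to choose a few of these promoters. CTCF binds a conserved element near most of the promoters, and in many alpha genes a second site within the variable exon. Cohesin, which extrudes chromatin loops and stalls at CTCF, is known to bring chosen alpha promoters to a distant enhancer. T47D cells are not neurons, and what follows describes occupancy, not promoter choice.

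The element is visible in the promoters themselves. RefSeq promoter windows of 300 bases (250 before to 50 after the start, GRCh38.p14) were at hand for 47 of the 53 genes. All 47 lie on the plus strand. The letters searched were picked after reading these promoters and differ between clusters. The sequences shown next are, for each cluster, the pair with the highest-ranked CTCF peaks in unstressed cells among promoters that carry the cluster's letters, followed by a pair with the same letters and a CTCF peak in none of the 13 lists. Each runs 5′ to 3′ on the plus strand for 60 bases, and capitals mark the match, which is ATGTCGCT in alpha promoters.
PCDHA5, chr5:140821529-140821588: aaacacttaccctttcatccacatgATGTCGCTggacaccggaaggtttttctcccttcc
PCDHA4, chr5:140806966-140807025: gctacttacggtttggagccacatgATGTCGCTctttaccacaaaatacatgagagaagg
PCDHA6, chr5:140827884-140827943: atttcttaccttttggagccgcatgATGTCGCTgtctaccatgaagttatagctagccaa
PCDHA7, chr5:140834159-140834218: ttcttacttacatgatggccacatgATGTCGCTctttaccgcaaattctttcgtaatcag

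In beta promoters the capitals mark GTGGCGCT. PCDHB7 and PCDHB9 come first and were occupied in all 13 lists, and PCDHB14 and PCDHB15 were occupied in none.
PCDHB7, chr5:141172553-141172612: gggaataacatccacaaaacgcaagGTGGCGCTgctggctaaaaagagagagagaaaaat
PCDHB9, chr5:141187061-141187120: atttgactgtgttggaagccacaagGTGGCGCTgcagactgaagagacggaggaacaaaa
PCDHB14, chr5:141223250-141223309: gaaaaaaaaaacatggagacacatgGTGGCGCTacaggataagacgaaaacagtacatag
PCDHB15, chr5:141245301-141245360: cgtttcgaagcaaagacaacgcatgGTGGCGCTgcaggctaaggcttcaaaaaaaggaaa

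In gamma promoters the capitals mark GNCGCTGT. PCDHGB1 and PCDHGB5 were occupied in 12 and 13 lists, and PCDHGA9 and PCDHGB6 in none.
PCDHGB1, chr5:141350014-141350073: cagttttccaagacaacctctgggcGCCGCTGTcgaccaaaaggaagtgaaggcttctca
PCDHGB5, chr5:141397852-141397911: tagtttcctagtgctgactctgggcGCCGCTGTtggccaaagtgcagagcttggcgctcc
PCDHGA9, chr5:141402703-141402762: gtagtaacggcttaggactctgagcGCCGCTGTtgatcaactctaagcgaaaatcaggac
PCDHGB6, chr5:141407913-141407972: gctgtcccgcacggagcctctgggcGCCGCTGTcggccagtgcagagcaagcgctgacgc

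ATGTCGCT stood on the plus strand of 9 of 13 alpha promoters and in 0.154% of all 34961 RefSeq promoter windows read on their own strand. GTGGCGCT stood in 13 of 14 beta promoters, against 0.641% of all windows. GNCGCTGT stood in 17 of 20 gamma promoters, against 2.46% of all windows, and also in 5 alpha promoters, where it can overlap ATGTCGCT, and 1 beta promoter. On either strand the shares of all windows were 0.235%, 1.16% and 4.35%. The shorter GNCGCT, which is contained in GNCGCTGT and in GTGGCGCT and ATGTCGCT, stood on the plus strand of 44 of the 47 promoters, against 28.5% of all windows.

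The CTCF summits lay on these letters. Of the 39 promoters with their cluster's match, 32 had a CTCF peak within 1 kb of the start in unstressed replicate 1, and in 30 of these the summit of the strongest peak lay within 60 bases of the match. The median signed offset, summit minus first base of the match, was 1.5 bases over the 32. Offsets before and after the match cancel in this value, so it is not a typical distance. The exceptions were PCDHA4 and PCDHA5, where the strongest peak of that list had its summit 592 and 611 bases past the start, inside the gene. In unstressed replicates 2 and 3 it lay 557 and 543 bases past the start of PCDHA4, and 597 and 560 past that of PCDHA5. A match did not go with a peak everywhere: 7 of the 39 promoters had the letters and no CTCF peak in any list. Conversely, PCDHA11 and PCDHAC1 carried no ATGTCGCT and were occupied in all 13 lists, and the PCDHAC1 summits lay 297 to 338 bases past the start. Both promoters did carry the shorter GNCGCT, so only the longer letters were absent. The strongest PCDHA11 summits lay at -71, -85 and 483 bases from the start in unstressed replicates 1, 2 and 3.

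Before the results by condition, a difference between libraries has to be stated. The libraries came in a first submission (7 CTCF lists) and a second (6 CTCF lists, which include replicate 3, the CTCF recovery library and all triptolide libraries). The second-submission CTCF lists hold a class of peaks with summits 1 to 3 kb past a member's start that the first-submission lists nearly lack. They numbered 179 in the second submission and 3 in the first. Their median fold enrichment over the caller's background was 3.08 in the second-submission lists, against 7.99 for peaks within 1 kb of a start in the same lists, and their median distance past the start was 1941 bases. They touched 43 members in at least 1 second-submission list and 2 members in any first-submission list. No RAD21 list held one.

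The class was then counted by gene. Of the 47 members with a strand in the promoter table, 27 had such a summit in 4 or more of the 6 second-submission lists, against 5.78% of the 15811 protein-coding genes with a strand. In 26 of them none of the 7 first-submission lists had one, against 0.772%. Over merged sites, wherever they lie, 33 of the 106 in the window were in 4 or more second-submission lists and in no first-submission list (31.1%), against 2.94% of all 77131 CTCF sites. Of the 33, 30 lay 1 to 3 kb past a member's start. By list the peaks numbered 8, 32 and 34 in the triptolide lists without stress, at 1 h and in recovery. Without triptolide they numbered 41, 38 and 26 in unstressed replicate 3, 1 h replicate 3 and recovery. What sets the submissions apart was not tested, and the CTCF counts over the window are given below with and without these peaks.

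**Figure D1:**
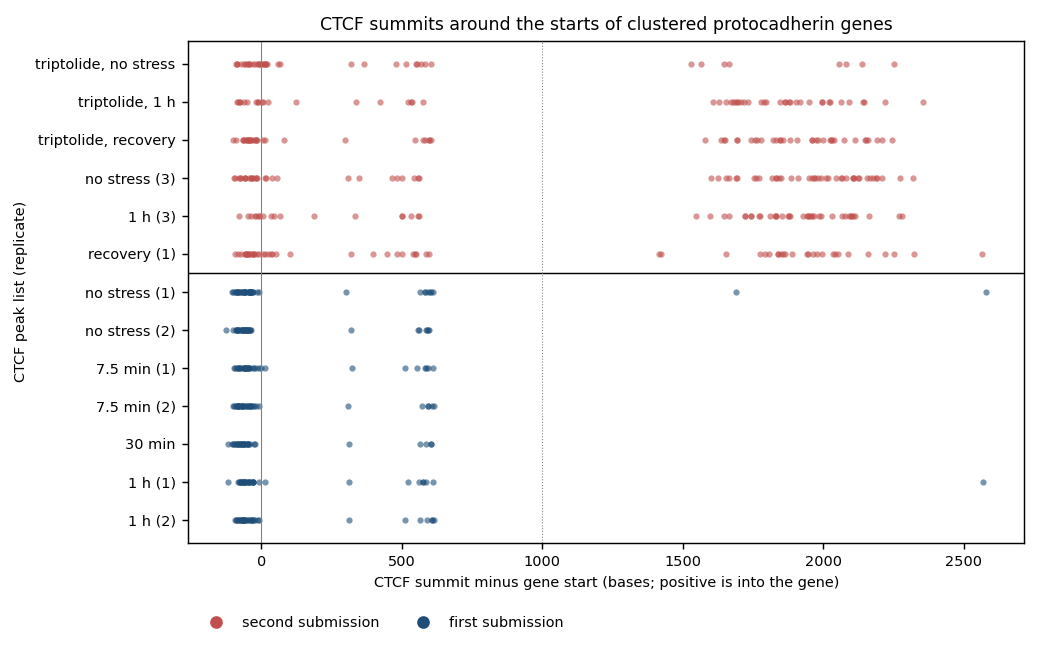
Distance of each CTCF summit from the nearest gene start (bases, positive into the gene), 1 row per peak list, second-submission lists above and first-submission lists below the line. All lists have summits just before the start and a smaller group within the gene short of the dotted line at 1 kb, and the band from 1 to 3 kb holds 179 summits in the second-submission lists and 3 in the first.

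At the gene starts, CTCF occupied 25 of the 53 members in all 3 unstressed lists, meaning that a peak lay within 1 kb of the start. Of the 47 members with a strand, 21 were so occupied, against 12.5% of all protein-coding genes with a strand. A further 17 members had a peak in 1 or 2 unstressed lists and 11 had none in any of the 13 lists. In the alpha cluster the 7 members occupied throughout unstressed cells were PCDHA2, PCDHA3, PCDHA4, PCDHA5, PCDHA11, PCDHA13 and PCDHAC1. In the beta cluster they were the 11 genes PCDHB2, PCDHB3, PCDHB5, PCDHB6, PCDHB7, PCDHB8, PCDHB9, PCDHB10, PCDHB11, PCDHB13 and PCDHB16. In the gamma cluster they were the 7 genes PCDHGA1, PCDHGB1, PCDHGA6, PCDHGA7, PCDHGB4, PCDHGB5 and PCDHGA10. The 11 members in no list were PCDHA6, PCDHA7, PCDHB1, PCDHB14, PCDHB15, PCDHGA9, PCDHGB6, PCDHGB7, PCDHGA12, PCDHGC4 and PCDHGC5. Of the 17 between, 9 were listed in replicate 1 alone among the unstressed lists, and this is the longest of the 13 CTCF lists.

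After 1 h of NaCl CTCF stayed at most of these starts. Of the 25 members, 17 had a start peak in all 3 lists at 1 h, 8 in 2 of them and 0 in none. The 8 were PCDHA2, PCDHA13, PCDHB5, PCDHB11, PCDHGA1, PCDHGB1, PCDHGA7 and PCDHGA10, and each was missing from 1 h replicate 3 only. Among members with a strand, 15 of 21 were kept in all 3 lists, against 75.1% of all such genes, and 0 of 21 were in no list at 1 h, against 3.78%. Within the first submission 32 members had a start peak in both unstressed lists, all 32 had one in both lists at 7.5 min and in both at 1 h, and 30 had one in the 30 min list. Of those with a strand, 28 of 28 were kept at 1 h, against 82.7% of all such genes. No such share was computed for the 7.5 and 30 min counts.

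**Figure D2:**
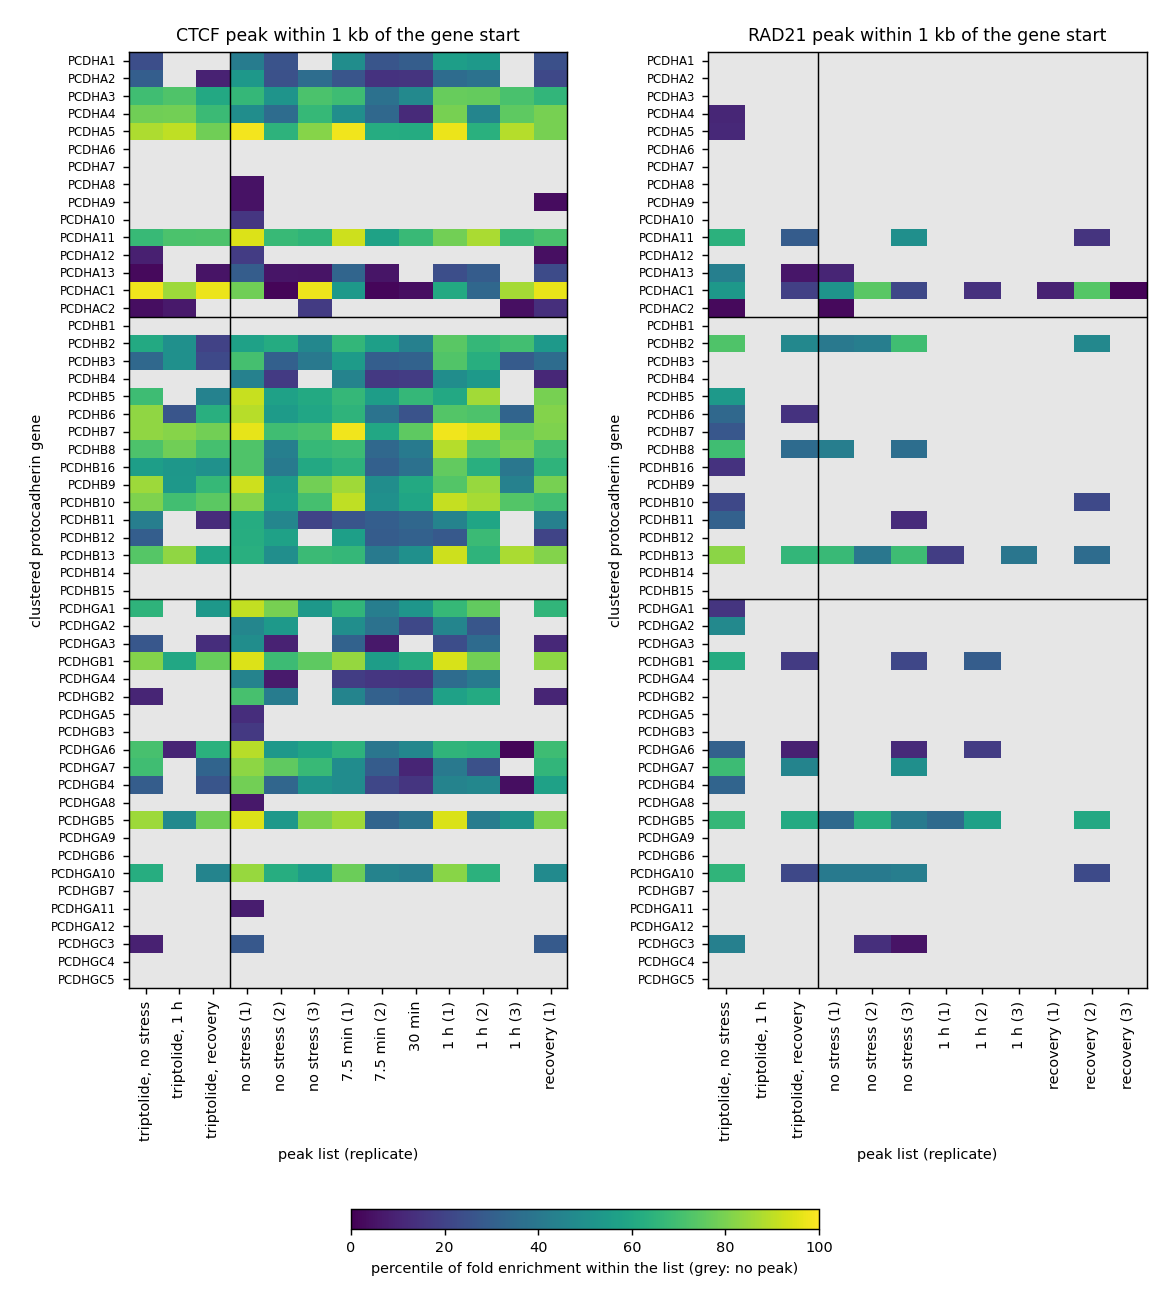
CTCF (left) and RAD21 (right) at the start of each of the 53 genes, 1 row per gene in chromosome order and 1 column per peak list, triptolide lists first. Colour gives the percentile of the peak's fold enrichment within its own list and grey means no peak within 1 kb; 11 rows are grey throughout for CTCF and RAD21.

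PCDHA5, PCDHB7 and PCDHGB1 led their clusters in mean rank among unstressed peaks. The start peak of PCDHA5 had a fold enrichment of 42.9, 14.9 and 14.035 in the 1 h lists, against 46.2, 15.8 and 12.9 in the unstressed lists. Its summit lay inside the gene, away from the ATGTCGCT match, in each of these lists. PCDHB7 had 45.0, 36.4 and 9.81 at 1 h, against 41.4, 17.4 and 9.74 unstressed. Of the same-numbered pairs of libraries, PCDHA5 was lower at 1 h in 2 and higher in 1, and PCDHB7 was higher at 1 h in all 3. For both genes the ranges of the 2 conditions overlapped. PCDHGB1 had 37.7 and 21.4 in 1 h replicates 1 and 2 and no peak in replicate 3, against 39.5, 17.1 and 10.8 unstressed. The folds are the authors' own values for each peak and were not tested.

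Counted as sites, the result was the same in kind. Overlapping peaks of the 6 lists compared were merged, and 35 sites of the window were shared by all 3 unstressed lists. Of these, 24 were in all 3 lists at 1 h (68.6%, exact 95% interval 50.7 to 83.1), against 57.1% genome-wide. The counts were the same without sites at peaks 1 to 3 kb past a start. This could hardly be otherwise, since unstressed replicates 1 and 2 held 2 and 0 such peaks, so it is no check. Not 1 of the 35 was lost, meaning in no 1 h list (exact 95% interval up to 10.0%), against 5.85% genome-wide, and 0 of 4 candidate sites were gained, against 0.636%. The other 11 were partly kept, and without 1 h replicate 3 all 35 were kept. Of those 11, 3 lay at no member's start: chr5:141084173-141084988 in the beta cluster before PCDHB2, chr5:141325790-141326561 between beta and gamma, and chr5:141560841-141561517 within the DIAPH1 gene.

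Within the first submission 45 sites were shared by both unstressed lists. At 1 h 44 of them were in both lists (97.8%, exact 95% interval 88.2 to 99.9), against 68.8% genome-wide, and 1 was lost, against 22.8%. At 7.5 min 42 of 45 were kept (93.3%), against 67.8% genome-wide, and 1 was lost, against 20.6%. The site lost at both times was chr5:141439399-141439750 in the gamma cluster. It was 1 of 11 of the 45 sites that lay within 1 kb of no member's start, and the other 10 were kept at 1 h.

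A site's strength moves with being kept in the genome as a whole. Sites were placed in bands of 20 percentile points by their mean percentile of fold enrichment in the first-submission unstressed lists. Genome-wide, 5.54% of sites between 0 and 20, 29.7% between 20 and 40, 68.6% between 40 and 60, 92.8% between 60 and 80 and 98.8% between 80 and 100 were kept at 1 h. In the window the counts in the same bands were 2 of 2, 7 of 7, 14 of 15, 12 of 12 and 9 of 9. The median percentile was 59.4 for the 45 window sites and 57.3 for all sites, a small difference in strength. In the 2 lower bands together 9 of 9 window sites were kept, against 24.7% of 11800 sites genome-wide. This is a description of 9 sites in 4 libraries.

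**Figure D3:**
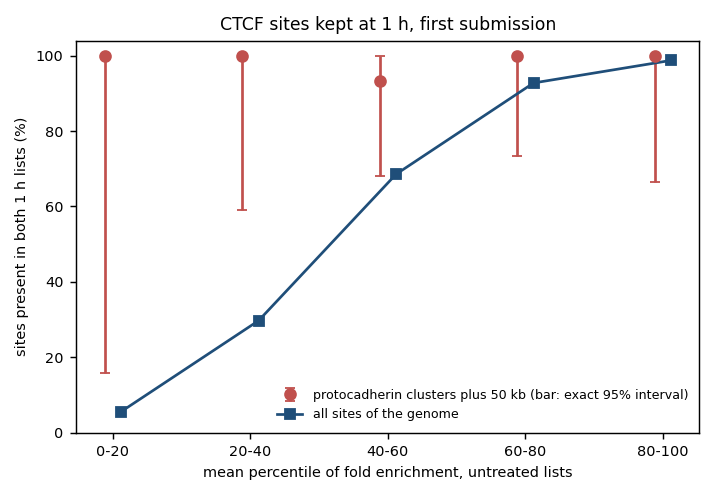
Percent of CTCF sites shared by both first-submission unstressed lists that were present in both 1 h lists (vertical axis), by the mean percentile of fold enrichment in the unstressed lists (horizontal axis). Circles are sites of the protocadherin window with exact 95% intervals and squares all sites of the genome; the circles lie at 93.3 to 100% while the squares climb with strength, with few window sites in each band.

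The 5 highest-ranked CTCF sites of the window in unstressed lists were 2 at gene starts and 3 elsewhere. Highest was chr5:141084173-141084988, with a mean percentile of 82.2, in 11 of 13 lists. The site of PCDHA5 at chr5:140821304-140822588 followed at 81.6, in all 13 lists. Next were chr5:141325790-141326561 at 80.3, before the gamma cluster, and the site of PCDHGB1 at chr5:141349732-141350359 at 79.6. The fifth, chr5:141557631-141558577 within DIAPH1, stood at 79.2. Neighbours in this order differed by less than the range of each site over the 3 lists.

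CTCF peaks over the window were then counted. By time, the counts were 58, 51 and 84 without stress, 45 and 46 at 7.5 min, 44 at 30 min and 46, 47 and 67 at 1 h, and the recovery list held 72. The 1 h lists averaged 53.3 ± 11.8 peaks and the unstressed lists 64.3 ± 17.4 (SD, n = 3 each), a difference of -11 (exact 2-sided permutation p = 0.5, where 0.1 is the smallest possible). Within the first submission the 1 h lists held 46 and 47, against 58 and 51 without stress, and within the second 67, against 84. At 7.5 min the mean was 45.5 ± 0.707, against 54.5 ± 4.95 in unstressed replicates 1 and 2 (SD, n = 2 each, exact permutation p = 0.333, the smallest possible). In replicates 1 and 2 the groups overlapped neither at 7.5 min nor at 1 h. With replicate 3, which has no 7.5 min list, the 1 h and unstressed groups overlapped.

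Relative to the whole lists the order turned. Per 10000 peaks of the list, the window held 13.004, 13.7 and 30.4 CTCF peaks at 1 h, against 9.69, 11.6 and 21.8 without stress, a difference of 4.69 (exact permutation p = 0.5). With the same number of strongest peaks from each list the 1 h lists held 15 more than the unstressed lists on average (exact permutation p = 0.1, the smallest possible). Without the peaks 1 to 3 kb past a start, a step chosen after seeing the data, the counts were 45, 47 and 29 at 1 h, against 56, 51 and 43 without stress. Per 10000 peaks of the list they were then 12.7, 13.7 and 13.2 at 1 h, against 9.36, 11.6 and 11.1 without stress, a difference of 2.497 (exact permutation p = 0.1). With equal numbers of strongest peaks the difference of 15 shrank to 2.33 without these peaks (exact permutation p = 0.7). Whole CTCF lists ran to between 20678 and 59843 peaks.

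**Figure D4:**
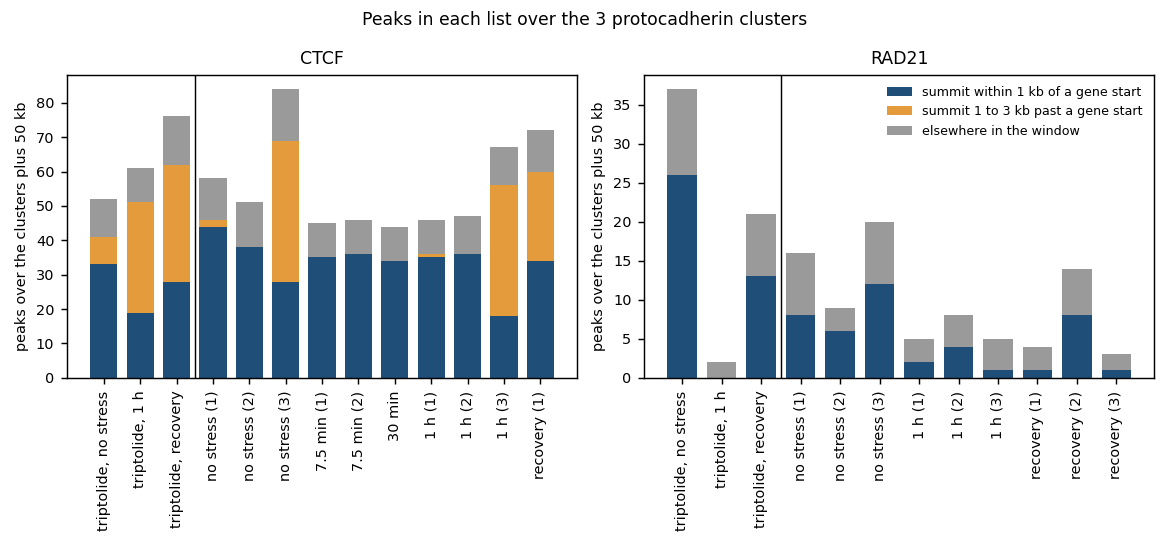
Number of CTCF (left) and RAD21 (right) peaks over the clusters plus 50 kb in each list, triptolide lists left of the line; colours split them by the place of the summit. Peaks 1 to 3 kb past a gene start fill the second-submission CTCF lists and are missing from RAD21, whose counts at 1 h are 5, 8 and 5.

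Cohesin was sparser. RAD21 lay within 1 kb of the start of 14 members in any unstressed list, or 12 of the 47 with a strand, against 20.0% of all genes with a strand. It lay there in all 3 unstressed lists for 5 members, PCDHAC1, PCDHB2, PCDHB13, PCDHGB5 and PCDHGA10, and all 5 were among the 47, against 7.23% of genes. At 1 h 5 of the 47 had a RAD21 start peak in any list, against 7.33%. No member had a RAD21 start peak in any of the 12 lists without a CTCF start peak in some list. Over the window 15 of 16, 9 of 9 and 20 of 20 unstressed RAD21 peaks overlapped a CTCF peak of any list. The CTCF lists of all conditions were pooled for this, stressed and triptolide lists included. No genome-wide share was computed for either overlap, so they do not set the clusters apart.

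Over the window RAD21 peaks numbered 16, 9 and 20 without stress, 5, 8 and 5 at 1 h and 4, 14 and 3 in recovery. The 1 h lists averaged 6 ± 1.73 and the unstressed lists 15 ± 5.57 (SD, n = 3 each), and every 1 h list held fewer than every unstressed list (exact permutation p = 0.1, the smallest possible). Whole RAD21 lists were shorter at 1 h too. Per 10000 peaks of the list the window held 10.5, 10.2 and 7.54 at 1 h, against 8.74, 6.54 and 8.02 without stress, so relative to the lists the difference turned to 1.65 (exact permutation p = 0.3). With equal numbers of strongest peaks it was 1 (exact permutation p = 0.6).

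Of 8 RAD21 sites shared by all unstressed lists, 1 was in all 1 h lists, against 34.5% of sites genome-wide, and 3 were lost, against 32.4%. With 8 sites the exact 95% interval of the lost share runs from 8.52 to 75.5%, which includes the genome-wide value. The lost sites were those of PCDHB2 at chr5:141094358-141094862 and PCDHGA10 at chr5:141412809-141413218, and chr5:141040009-141040630 between alpha and beta. At all 3, CTCF was present in at least 2 of the 3 lists at 1 h. The kept site lies in DIAPH1 past the gamma cluster.

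PCDHAC1, a C-type alpha gene whose promoter is known to be less subject to random choice, had a RAD21 fold enrichment of 8.74, 11 and 5.31 without stress. At 1 h it had a RAD21 peak in replicate 2 alone, with a fold of 4.37, and in recovery in all 3, with 4.42, 13.3 and 2.26. It was the single member with a RAD21 start peak in every recovery list. PCDHB13 had folds of 11.1, 6.37 and 10.5 without stress, 5.19 and 5.87 in 1 h replicates 1 and 3, and 6.85 in recovery replicate 2. PCDHGB5 had 7.03, 8.86 and 6.88 without stress, 6.24 and 8.08 in 1 h replicates 1 and 2, and 9.94 in recovery replicate 2. Both genes therefore held cohesin in 2 of 3 libraries at 1 h. PCDHB2 and PCDHGA10, with no peak at 1 h, were listed again in recovery replicate 2, at folds of 7.96 and 5.70.

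Recovery of RAD21 rested on 1 library. The recovery lists averaged 7 ± 6.08 peaks over the window and the 1 h lists 6 ± 1.73 (SD, n = 3 each, exact permutation p = 1), and without recovery replicate 2 the difference turned to -2.5. Against unstressed lists, at 15 ± 5.57, recovery was 8 lower on average (exact permutation p = 0.2), but the difference was 0 with equal numbers of strongest peaks (exact permutation p = 1) and -0.909 per 10000 peaks (exact permutation p = 0.7). Lists were then matched by number, although same-numbered RAD21 libraries share only a number. Of the untreated RAD21 peaks of the window absent from the same-numbered 1 h list, 2 of 11, 4 of 5 and 2 of 15 were in recovery lists 1, 2 and 3. The window's shares were 18.2, 80 and 13.3%, against 12.5, 81.4 and 11.4% genome-wide. The replicate 2 recovery list holds 20400 peaks, against 4397 and 6492 in the others. Per site, 3 of the 8 sites shared by all unstressed lists were in all recovery lists, against 35.2% genome-wide, and 0 were lost, against 2.02%.

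CTCF in recovery has 1 list, of the second submission. It held 72 window peaks, against 84 in unstressed replicate 3 of the same submission. Without the peaks 1 to 3 kb past a start the order turned, with 46 in recovery and 43 unstressed. All 8 members whose start peak was missing from 1 h replicate 3 but present in unstressed replicate 3 had it in recovery. No share over all genes was computed for these start peaks, so their return does not set the members apart. Over the window 12 of the 18 peaks of unstressed replicate 3 that were absent at 1 h were present in recovery (66.7%, exact 95% interval 40.99 to 86.7), against 87.4% genome-wide. Without peaks 1 to 3 kb past a start it was 12 of 14 (85.7%).

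The triptolide lists can be set side by side with the untreated lists of their submission but not tested. Titles were followed where a tag says otherwise, which it does in 6 of the 12 second-submission libraries. CTCF start peaks marked 32, 18 and 26 members in triptolide cells without stress, at 1 h and in recovery. Without triptolide they marked 26, 18 and 34 in the libraries of that submission. Both 1 h lists were thus the lowest, and 14 of 32 start peaks of unstressed triptolide cells were absent at 1 h, of which 9 were back in recovery. Among members with a strand 12 of 28 were absent, against 51.1% of all such genes, and 7 of these 12 were back, against 65.9%. The sum over the window ran the other way at 1 h, with 61 CTCF peaks in triptolide cells at 1 h, against 52 in unstressed triptolide cells, and turned to 29 against 44 without the peaks 1 to 3 kb past a start.

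RAD21 showed the widest range under triptolide. The triptolide lists held 37, 2 and 21 window peaks without stress, at 1 h and in recovery, and the untreated lists of the same submission 20, 5 and 3. At gene starts RAD21 marked 24, 0 and 12 members in triptolide cells and 12, 1 and 1 in untreated ones. No share over all genes was computed for these start counts, so they do not set the members apart. PCDHB13, PCDHB2 and PCDHGA10 had their highest RAD21 folds of any list in unstressed triptolide cells, at 17.9, 13.2 and 10.97. The unstressed triptolide list is also the longest RAD21 list at 40969 peaks, and per 10000 peaks the window held 9.03, 5.98 and 9.14 in the triptolide lists, against 8.02, 7.54 and 4.62 in the untreated ones. List length moves with these counts, and its part in them was not tested.

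Pol II was read as the percent of bases covered by broad regions. To keep the overlapping spans apart, each gene was given the segment from its own start to the next member's start, or to its gene end for the last of a cluster, which for PCDHGC5 includes the constant exons that all gamma genes share. Over the window, coverage was 11.3 and 15.8% at 1 h, against 19.0 and 26.7% without stress, and averaged 13.5 ± 3.21 and 22.8 ± 5.44% (SD, n = 2 each, exact permutation p = 0.333, the smallest possible). Both 1 h values lay below both unstressed ones. The mean coverage of all protein-coding genes was lower at 1 h as well, at 15.8 and 17.0%, against 28.2 and 27.4% without stress. The gamma cluster had 11.4 and 17.2% at 1 h, against 24.6 and 38.0% without stress, and the groups did not overlap. The alpha cluster had 10.4 and 9.38% at 1 h, against 26.0 and 10.3% without stress, and the beta cluster 11.3 and 9.80% against 9.53 and 16.7%, where the groups overlapped.

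The Pol II regions at 1 h were weak. Of the window's regions, 1 of 52 and 0 of 91 at 1 h had a deposited -log10 q of at least 1.3, against 33 of 65 and 24 of 56 without stress. In the window these are 1.92 and 0% at 1 h, against 50.8 and 42.9% without stress. Over the whole lists the shares were 20.0 and 7.63% at 1 h, against 50.0 and 51.5%, so they were lower at 1 h throughout the genome too. The median fold of the window's regions was 1.08 and 1.09 at 1 h, against 1.43 and 1.31 without stress. With that threshold 0 members had any coverage in either 1 h list, against 20 and 12 members in the unstressed lists. A higher value at 1 h therefore rests on regions below it.

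By segment, 14 members were lower in both 1 h lists than in both unstressed lists, 8 were higher and 31 overlapped. Over whole gene spans, 36 of the 53 members were lower (67.9%) and 5 higher (9.43%), against 35.2% and 16.1% of all protein-coding genes. The span count is not one of independent genes, since alpha and gamma spans overlap and run to a shared end. It was made up of all 22 gamma genes, 11 of 15 alpha genes and 3 of 16 beta genes, and the 5 higher were beta genes. Within 1 kb of the start, 7 of the 47 members with a strand were lower and 1 higher, against 28.7% and 4.64% of all genes with a strand. With regions of -log10 q of at least 1.3, 8 members were lower by segment (PCDHA4, PCDHA5, PCDHA10, PCDHA11, PCDHB6, PCDHB14, PCDHGA12 and PCDHGC5) and 0 higher. Segments, starts and spans differ in length, so a count of one kind is read only against a share of the same kind. Segments were defined for members alone. The segment counts, at either threshold, therefore have no share over all genes beside them and do not set the members apart from other genes.

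The 5 largest falls were at PCDHGC5, PCDHB15, PCDHGC4, PCDHGB3 and PCDHB13. PCDHGC5, the last gamma gene, was covered over 0 and 2.59% of its segment at 1 h, against 100 and 95.7% without stress. PCDHB15, the last beta gene, had 9.90 and 0% at 1 h, against 77.1 and 100%, and PCDHGC4 had 0 and 0%, against 65.6 and 92.4%. These 3 were the members covered over more than 50% in both unstressed lists, and all 3 were among the 11 with a CTCF start peak in no list. PCDHGB3 had 0 and 4.88% at 1 h, against 5.81 and 99.1%, so its unstressed libraries disagree. PCDHB13, occupied by CTCF in all 13 lists, had 0 and 2.53% at 1 h, against 29.6 and 58.1% without stress. With regions limited to a -log10 q of at least 1.3, PCDHGC5 alone of the 5 stayed lower, at 0 and 0% at 1 h, against 100 and 41.5% without stress. PCDHB15, PCDHGC4 and PCDHGB3 then had coverage in unstressed replicate 1 alone, and PCDHB13 was at 0 in all 4 lists.

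The 5 largest rises were at PCDHGB2, PCDHA3, PCDHGA3, PCDHB4 and PCDHB2. PCDHGB2 had 52.6 and 21.1% at 1 h, against 0 and 0% without stress, and PCDHA3 had 38.995 and 48.9%, against 17.2 and 4.59%. PCDHGA3 had 19.6 and 22.998%, and PCDHB4 14.01 and 11.1%, each against 0 and 0%. PCDHB2 overlapped, with 29.6 and 0% at 1 h, against 5.63 and 0%. All 5 were at 0 in all 4 lists once regions were limited to a -log10 q of at least 1.3.

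With all regions counted, the members without CTCF at the start had the higher median coverage in unstressed cells. The median segment coverage of the 11 members in no CTCF list was 0 and 8.17% at 1 h, against 13.3 and 34.4% without stress. The 25 members occupied in all unstressed CTCF lists had medians of 6.78 and 5.66% at 1 h, against 7.09 and 15.6% without stress. The 17 members between had medians of 2.38 and 6.64% at 1 h, against 0 and 0%. The ranges overlapped, since 4 and 3 of the 11 members were at 0 in the unstressed lists, and members of a cluster are neighbours and not replicates. With regions of -log10 q of at least 1.3, unstressed replicate 2 covered only PCDHB14, PCDHGA12 and PCDHGC5 of the 11. Most members of each group had no coverage in that list, so the higher median in replicate 2 rests on weaker regions. In unstressed replicate 1 the same threshold left PCDHA6, PCDHB14, PCDHB15, PCDHGA12, PCDHGC4 and PCDHGC5 of the 11 covered, over 11.8 to 100%. Most members of the other groups had no coverage in that replicate.

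**Figure D5:**
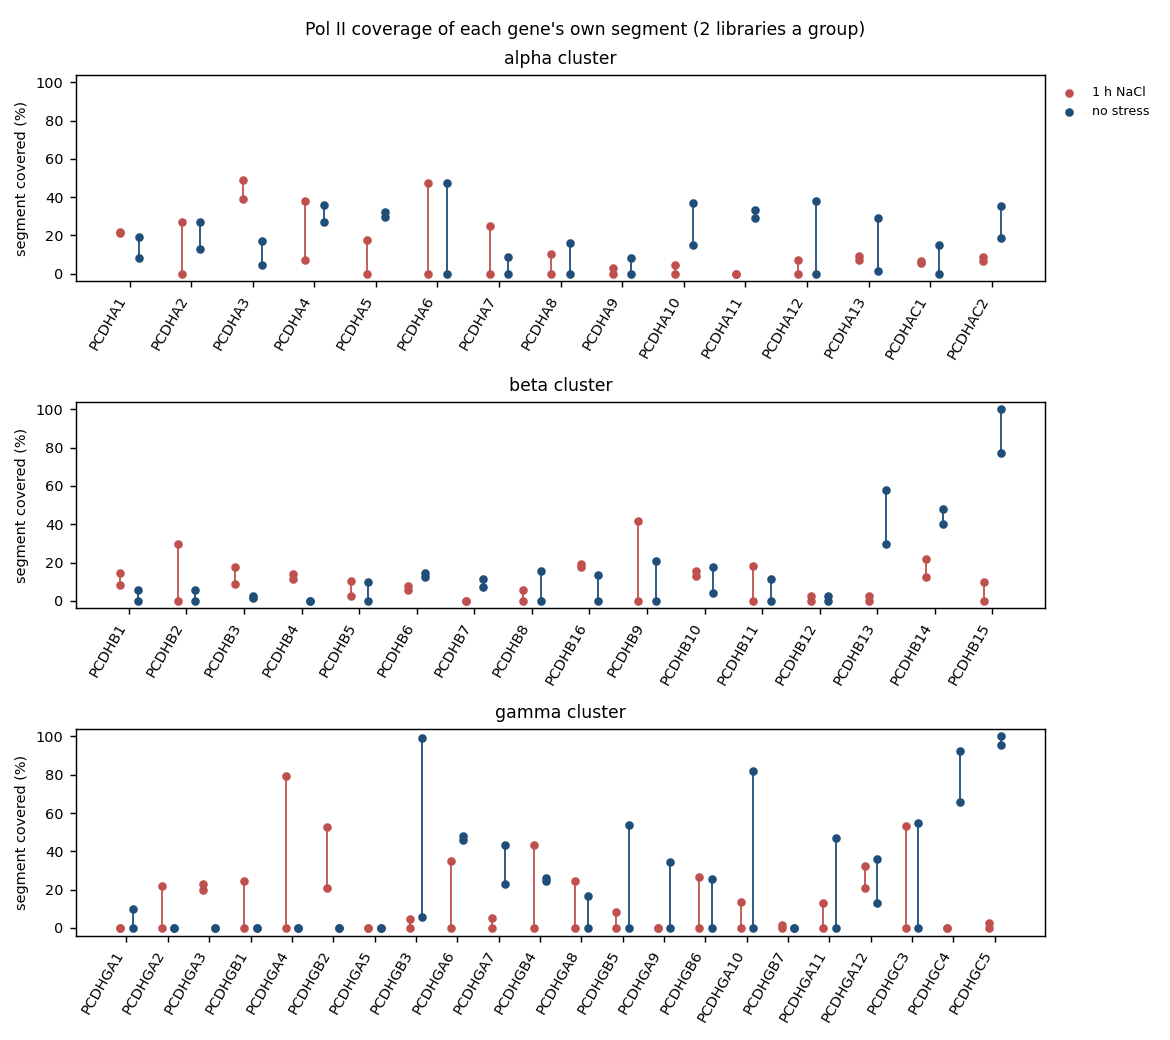
Percent of each gene's own segment covered by Pol II regions (vertical axis), in chromosome order, with 1 h NaCl left of no stress, 1 point per library and a line between the 2 libraries. PCDHGC5, PCDHGC4 and PCDHB15 stand between 65.6 and 100% without stress and between 0 and 9.90% at 1 h; many other pairs of libraries are far apart.

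Other genes give the scale. The 12 non-clustered protocadherins measured (PCDH1, PCDH7, PCDH8, PCDH9, PCDH10, PCDH11X, PCDH12, PCDH15, PCDH17, PCDH18, PCDH19 and PCDH20) had Pol II coverage lower at 1 h in 3 cases and higher in 1, and PCDH1 had 12.4 and 13.4% at 1 h, against 88.8 and 55.6%. Of 8 luminal breast genes, 5 were covered over more than 50% of their span in both unstressed lists, KRT18 was listed at 0 in all 4, 4 were lower at 1 h and 0 higher. Of 5 neuronal genes, TUBB3 alone passed that mark, 3 were lower at 1 h and 1 higher. Of 4 fibroblast genes none passed it, and 2 were lower and 0 higher. Of 3 haematopoietic genes none passed it, 1 was lower and 2 were higher. The lower one was CD3E, of the T cell receptor complex, with 19.2 and 20.5% at 1 h, against 33.1 and 32.8% without stress. The higher ones were ITGAM, an integrin of myeloid cells, with 98.1 and 95.1% at 1 h, against 3.53 and 0% without stress, and PTPRC, the pan-leukocyte CD45, with 24.3 and 7.17% at 1 h, against 0.475 and 2.99%. The part of other cells in the values of the clusters was not tested.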

How the data were processed

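The series has 41 ChIP-seq samples, of which 29 immunoprecipitations carry a peak list made from that library alone. The 12 inputs were not used here. Per the submitters' processing notes, hg38 and the tools cutadapt, MACS2 and Bowtie2 (2.2.6) were used, with HOMER, DESeq2 and DiffBind (2.4.6) named for the first submission. The calling threshold is not given in the sources used here. The authors' lists give each peak a fold enrichment, a ratio to the caller's background, and deposited -log10 p and -log10 q values, which served to order, select or describe the peaks of 1 list at a time. The read depth of the libraries is unknown. CTCF lists hold 20678 to 59843 peaks, RAD21 lists 3344 to 40969 and Pol II lists 88046 to 216968 regions. No lists were identical (0 pairs).

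Samples were grouped by title, which the pre-treatment tag contradicts on triptolide in 6 libraries. The series text gives 100 mM NaCl where the titles give 110 mM. Autosomes 1 to 22 and X were kept. The software was scipy 1.17.1, pandas 2.3.3 and numpy 2.4.6 under Python 3.11.15, with matplotlib 3.10.9 for the figures. Peaks overlapping by 1 bp were merged into sites. A site was kept when in every list of both groups, lost when in every unstressed and no stressed list, and gained in the opposite case. Peak numbers and coverage were compared by exact 2-sided permutation tests over libraries (smallest p 0.1 for 3 against 3 and 0.333 for 2 against 2), tested on simulated data. Intervals of shares are exact Clopper-Pearson 95% intervals and cover counting error only. Nothing says that replicates came from separate cultures, so p-values measure the spread between libraries. The deviations of same-numbered CTCF libraries at 1 h and without stress correlated across sites at 0.126, 0.381 and 0.345, and the numbers were taken to pair them. For 1 h replicate 1 the correlation with unstressed replicate 2 was 0.138, no lower than with its own number. The data therefore do not single out its partner. This pairing comes from the data, and number 3 is also the second submission. Genes, and promoter sequences with strand, come from RefSeq tables of GRCh38.p14. No exon positions were used.

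Genes and sites named in the text are those with CTCF within 1 kb of the start in all unstressed lists, sites lost or gained at 1 h, the 5 highest-ranked sites, and the 5 largest rises and falls of Pol II among members covered in 2 or more lists. The members, lists and tests were chosen with earlier results of these data known. Alternatives were other thresholds, equal list lengths, counts per 10000 peaks, no flanks, other ways of merging, single submissions, each library left out and a replicate block.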

Additional observations from a re-analysis of the deposited data

How the results depend on the processing

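Of 136 alternative values for 15 results, 108 kept the direction and the side of the threshold or stayed within the error, 16 reversed and 12 moved. No difference in peak number or coverage passed 0.05 under any setting, and none of the designs can reach it. With equal numbers of strongest peaks the difference in window peaks turned to 15 for CTCF at 1 h, 3.5 for CTCF at 7.5 min, 1 for RAD21 at 1 h and -1.33 for RAD21 in recovery against 1 h. Per 10000 peaks it turned to 4.69, 2.83, 1.65 and -2.55 in the same order. RAD21 in recovery against 1 h also turned to -2 in the second submission alone. Settings chosen after seeing the data, without peaks 1 to 3 kb past a start, turned the CTCF difference of triptolide 1 h against triptolide unstressed to -15, where 9 was reported, and that of recovery against unstressed replicate 3 to 3, where -12 was reported. With the same peaks left out, the CTCF difference also turned to 2.497 at 1 h and 2.99 at 7.5 min per 10000 peaks, and to 2.33 and 3.5 with equal numbers of strongest peaks. The cause was not tested.

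Leaving out each library, the CTCF difference ranged from -17.8 to -1.17 at 1 h and from -12.5 to -5.5 at 7.5 min. The RAD21 difference ranged from -12 to -6.5 at 1 h against unstressed, from -2.5 to 3 in recovery against 1 h and from -11.5 to -5.5 in recovery against unstressed, and the Pol II difference from -13.1 to -5.45 percentage points. The share of CTCF sites kept at 1 h ranged from 53.3 to 100% and was 97.8% in the first submission alone, and CTCF sites lost ranged from 0 to 1, with 1 in the first submission alone. RAD21 sites kept ranged from 11.1 to 25%, sites lost from 3 to 6 (5 without 1 h replicate 2 and 6 without unstressed replicate 2), and regained from 15.4 to 37.5%. With equal numbers of strongest peaks, where 1 shared RAD21 site was left, 0% were kept and 0 lost, and 66.7% were regained (4 of 6). Members with lower Pol II at 1 h numbered 8 within 1 kb of the start, 8 with a -log10 q of at least 1.3, and 15 to 25 leaving out each library (25 without unstressed replicate 1), against 14 as reported.

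For RAD21 the correlations of same-numbered libraries' deviations across sites were -0.0454, 0.203 and 0.0894, so these libraries share only a number. With the replicate block (exact sign-flip permutation of same-numbered differences) the differences keep their size. The sign-flip p was 0.25 for CTCF at 1 h (-11) and for RAD21 at 1 h (-9), and no call could change. Peak lists without read depth limit what a missing peak can show.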
